A study of Homo sapiens with 6 samples.

Results

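The BCL2 family decides whether the outer membrane of the mitochondrion stays closed or is opened to release cytochrome c. Survival members (BCL2, BCL2L1 and MCL1) bind and hold back the death members. BAX and BAK1 form the pore, and the BH3-only proteins BCL2L11 (BIM), BBC3 (PUMA), PMAIP1 (NOXA), BID and BAD start the process by binding survival members or the pore formers. The 10 genes were chosen by name as these 3 survival and 7 death members. They are 10 of 13475 protein-coding genes with at least 1 listed exonic bin.

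CELF1 (CUGBP1) is an RNA-binding protein that recognizes GU-rich elements, often in the 3' UTR, and takes part in mRNA decay, translation and splicing. RNA immunoprecipitation followed by sequencing (RIP-Seq) was used to ask which mRNAs CELF1 holds in melanoma cells. Lysates of formaldehyde-fixed cells of 2 established human melanoma lines, for which the labels name no drug or genetic change, were pulled down with an antibody to CUGBP1. SK-Mel-103 gave 1 immunoprecipitated (IP) sample, replicate 1, and UACC-62 gave 2 biological replicates, numbered 1 and 3. Each of the 3 IP samples was set against its own input, the RNA of the lysate before the pull-down. No pull-down with a control antibody was analysed here.

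The unit of measurement is a bin of 20 bp that passed the authors' peak caller, with its number of IP reads and of input reads. Between 780750 and 862731 bins were listed per IP sample, with 10958459 to 14436573 IP reads and 8453517 to 10161917 input reads. A bin entered the lists only with 4 or more IP reads, and 9.69% of the listed bins in SK-Mel-103, 15.9% in UACC-62 replicate 1 and 29.2% in replicate 3 had no input read. The value of a gene below is log2 of its IP reads over its input reads, summed over its listed exonic bins, each divided by the total of the list, with 1 read added to both. A value of 0 is therefore the average of all listed reads and not the absence of binding. Bracketed 95% confidence intervals are exact binomial intervals and cover counting error only. With 3 pairs of IP and input, an exact 2-sided sign-flip test could not give a p below 0.25, so no test was made. Of 8 melanocyte marker genes, 3 had listed bins in SK-Mel-103 and 6 in both UACC-62 samples. TYR and DCT, enzymes of pigment synthesis, had none in SK-Mel-103, and PMEL and TYRP1 had none in any sample. Of 3 keratinocyte markers KRT10 alone was listed, and of 4 immune and 4 fibroblast markers at most 2 and 1 were listed in a sample, with at most 14 input reads.

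MCL1 dominated the family by reads, and BCL2 and BCL2L11 by IP over input. The pore former BAX lay lowest as the mean of the 3 samples and in both UACC-62 samples, and BID lowest in SK-Mel-103. The following 20-nt bins carried the most IP reads of each gene among the bins listed in all 3 samples, with 2 bins for MCL1 since its pattern is described along the transcript. They are given 5' to 3' on the transcript strand from GRCh37, with UGU, the core of known CELF1 sites, in capitals where it occurs.
MCL1, chr1:150547061-150547080, 3' UTR end: uaacuuucUGUuuuuccuga
MCL1, chr1:150548681-150548700, 3' UTR middle: uuaaagugaauucaugggcu
BCL2, chr18:60986121-60986140, 5' UTR: aacgugccucaugaaauaaa
BCL2L1, chr20:30252541-30252560, 3' UTR: uugagacuaguuuuuauucc
BAX, chr19:49464881-49464900, 3' UTR: gaagaugggcugaggccccc
BAK1, chr6:33541201-33541220, 3' UTR: uaauacccuUGUgagagccc
BCL2L11, chr2:111924261-111924280, 3' UTR: gaaacgcaauaaacacacac
PMAIP1, chr18:57571441-57571460, 3' UTR: uuaccaucugguauuuaugg
BID, chr22:18218161-18218180, 3' UTR: acuuuaaaauaucuacauua
BAD, chr11:64037301-64037320, 3' UTR: agcccgcgucUGUgccgccg

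UGU stood in 3 of these 10 bins. Over all protein-coding genes, 37.2% of the 180380 3' UTR bins listed in all 3 samples held UGU, against 30.3% of the 152 such bins of the 10 genes. BBC3 had no bin listed in more than 1 sample and is not shown.

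Peaks, taken as listed bins with more than 30 IP reads, were found in 5 of the 10 genes in SK-Mel-103, in 2 in UACC-62 replicate 1 and in 2 in UACC-62 replicate 3. The shares of all 13475 genes were 22.7%, 18.9% and 25.7%. A common peak, the same bin above 30 IP reads in all 3 samples, was present in MCL1 and BAX. The background for a common peak was 13.1% of genes, so that 2 of 10 genes is near it. MCL1 held 23 common peaks and BAX held 1. PMAIP1 had 8 peaks in SK-Mel-103 and none in either UACC-62 sample, and BCL2L1 and BID each had 1 peak, in SK-Mel-103 alone.

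Among the survival members, BCL2, the founding inhibitor of the family, had 306 IP reads over 124 input reads in SK-Mel-103, 47 over 12 in UACC-62 replicate 1 and 148 over 29 in replicate 3. On the log2 scale IP over input was therefore 0.92 [0.62, 1.24] for SK-Mel-103, 1.73 [0.88, 2.86] for replicate 1 and 1.61 [1.07, 2.28] for replicate 3, with a UACC-62 mean of 1.67 ± 0.080 (SD, n = 2). All 3 values lay above 0, and the SK-Mel-103 value lay below both UACC-62 values. The reads were spread thinly. Of 83 exonic bins listed in any sample, 1 was listed in all 3, and no bin of BCL2 exceeded 12 IP reads. That 1 bin, printed above, alone gave -0.052 in SK-Mel-103 and 0.65 as the UACC-62 mean. With bins that had no input read left out, BCL2 stood at 0.67 in SK-Mel-103 and at 0.98 as the UACC-62 mean.

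BCL2L1, which encodes BCL-XL, had 856 IP reads over 756 input reads in SK-Mel-103, 104 over 75 in UACC-62 replicate 1 and 290 over 122 in replicate 3. BCL2L1 gave log2 values of -0.20 [-0.34, -0.052], 0.31 [-0.13, 0.76] and 0.54 [0.24, 0.87] in the same order, with a UACC-62 mean of 0.43 ± 0.17 (SD, n = 2). The SK-Mel-103 sample lay below the list average and both UACC-62 samples above it. The listed input level, in reads per kb of exon and 1000000 listed reads, stood at 21.3 in SK-Mel-103 and at 1.76 and 3.27 in UACC-62. The part of this difference in level in the difference of the ratios was not tested.

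MCL1, a short-lived survival protein, had 10739 IP reads over 6924 input reads in SK-Mel-103, 2745 over 3532 in UACC-62 replicate 1 and 5027 over 3358 in replicate 3. These were 77.7% to 80.1% of all IP reads of the family. As log2 IP over input, MCL1 stood at 0.26 [0.22, 0.30] for SK-Mel-103, -0.52 [-0.59, -0.45] for replicate 1 and -0.12 [-0.18, -0.052] for replicate 3, with a UACC-62 mean of -0.32 ± 0.29 (SD, n = 2). SK-Mel-103 lay above the list average and UACC-62 below it. The counting intervals were narrow here, so that the spread of 0.29 between the UACC-62 replicates was larger than counting error.

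Of the pore formers, BAX had 229 IP reads over 349 input reads in SK-Mel-103, 184 over 517 in UACC-62 replicate 1 and 197 over 298 in replicate 3. The log2 values were -0.98, -1.64 and -1.29, and -1.47 ± 0.25 (SD, n = 2) in UACC-62, so that input reads outweighed IP reads in every sample. BAK1 had 68 over 59, 127 over 226 and 141 over 165 reads, with log2 values of -0.17, -0.98 and -0.92. The SK-Mel-103 value of BAK1 had an interval of -0.69 to 0.36, which includes 0, and stood above both UACC-62 values. BAK1 has 2 pseudogenes in the annotation, and neither had a listed bin.

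Of the BH3-only genes, BCL2L11 stood apart from the others. BCL2L11 had 113 IP reads over 36 input reads in SK-Mel-103, 66 over 26 in UACC-62 replicate 1 and 221 over 34 in replicate 3. The log2 values were 1.25 [0.72, 1.86], 1.15 [0.51, 1.90] and 1.97 [1.48, 2.57], with a UACC-62 mean of 1.56 ± 0.58 (SD, n = 2). All were above 0, and the SK-Mel-103 value lay between the UACC-62 replicates. As in BCL2, the reads were few per bin: 2 of 59 bins were listed in all 3 samples, and the highest held 13 IP reads. With bins that had no input read left out, BCL2L11 stood at 0.94 in SK-Mel-103 and at 1.01 as the UACC-62 mean.

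PMAIP1 had 1073 IP reads over 1573 input reads in SK-Mel-103, 96 over 203 in UACC-62 replicate 1 and 256 over 249 in replicate 3. The log2 values were -0.93, -1.23 and -0.66, so the 2 lines overlapped. Its listed input level, on the scale given for BCL2L1, was 85.1 in SK-Mel-103 and 9.14 and 12.8 in UACC-62. The 8 PMAIP1 peaks of SK-Mel-103 thus went with a higher listed level and not with a higher IP over input. BID, which is cut by caspase-8 to reach mitochondria, had values of -1.01, -0.25 and -0.45, from 272 over 423, 29 over 31 and 68 over 57 reads. SK-Mel-103 was the lowest, and the intervals of both UACC-62 values include 0. BAD had values of -0.86, -1.18 and -0.87, from 147 over 206, 27 over 56 and 47 over 53 reads, with no order between the lines. BBC3 had 2 listed bins in SK-Mel-103, together 11 IP and 7 input reads, no listed bin in UACC-62 replicate 1, and 1 bin with 5 IP reads and no input read in replicate 3. No ratio is read from it.

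Over the 9 genes listed in all samples, 2 lay above 0 in all 3 samples (BCL2 and BCL2L11), where the share of all 10319 such genes was 31.6%. Below 0 in all 3 lay 5 of 9 (BAX, BAK1, PMAIP1, BID and BAD), where the share was 43.2%, but without division by list totals BAK1 was at 0.20 in SK-Mel-103 and BID at 0.079 as the UACC-62 mean. BCL2L1 and MCL1 differed in sign between the lines, but lay above 0 in both (UACC-62 as the mean) without that division. In UACC-62 replicate 1, MCL1 and BID still had fewer IP than input reads, 2745 against 3532 and 29 against 31.

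The median of the survival members was above that of the death members in each sample. The survival medians were 0.26, 0.31 and 0.54 in SK-Mel-103, UACC-62 replicate 1 and UACC-62 replicate 3, and the death medians were -0.86, -1.08 and -0.66. The difference was 1.12, 1.39 and 1.2 on the log2 scale, and 1.30 ± 0.13 (SD, n = 2) in UACC-62. The classes overlapped in every sample, since BCL2L11 was above MCL1 and BCL2L1 in all of them. The 10319 genes had medians of -0.052, -0.40 and -0.20 in the same order. With 3 survival members, the survival median was the value of MCL1 in SK-Mel-103 and of BCL2L1 in both UACC-62 samples. The death medians include the few reads of BBC3 where it was listed.

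**Figure D1:**
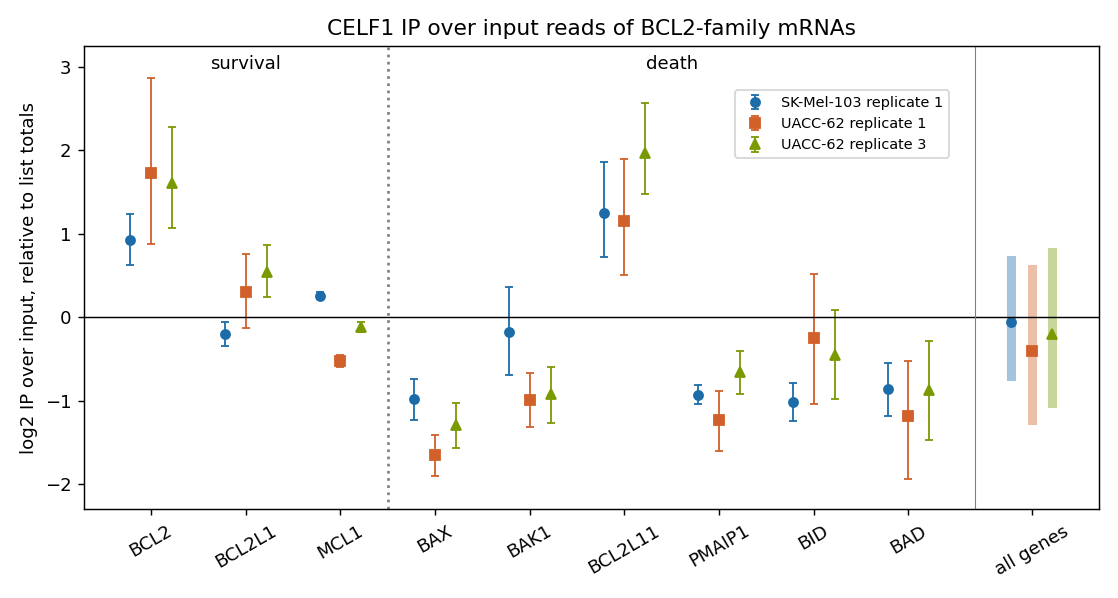
Log2 IP over input (y axis, relative to the list totals) of the 9 members listed in all samples, by sample. Bars on the members are 95% counting intervals, and the right-hand column gives the median and the middle quartiles of all 10319 genes. BCL2 and BCL2L11 lie above 0 in all samples, and 5 death members lie below 0, of which BAK1 and BID do so in part only through the division by list totals.

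IP over input also moved with how many reads a gene had. Across the 10319 genes, the Spearman correlation of log2 IP over input with listed reads per kb of exon was -0.38, -0.43 and -0.42 in the 3 samples, as a description over genes that share libraries. Genes were put in 10 classes by that level, of which class 1 was the lowest. Class 1 had medians of 0.81, 0.84 and 1.26, and class 10 of -0.68, -1.38 and -0.89. BCL2 was in class 2 and BCL2L11 in class 3, BCL2L1 and BAX were both in class 7, PMAIP1 was in class 9 and MCL1 in class 10. Genes of few reads thus had higher ratios in these lists, and the part of level in the values of BCL2 and BCL2L11 was not tested.

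Set against the median of its own class, each of the 3 survival members was higher in all 3 samples, and so was 1 death member, BCL2L11. These 4 of 9 genes compare with 34.4% of all genes. BCL2 was 0.51 to 1.38 above its class, BCL2L1 0.23 to 1.28, MCL1 0.78 to 0.93 and BCL2L11 1.08 to 1.84. MCL1, near the list average, was thus above the median gene of its level, and its rank within the class was not computed. BAX, -0.67 to -0.56 from its class, and BAD, -0.54 to -0.29, were below it in all 3 samples, as were 33.6% of all genes. BAK1, PMAIP1 and BID lay on both sides. Each gene had 1 class, set by its level as the mean of the 3 samples and not by its level in each. The listed input level in SK-Mel-103, UACC-62 replicate 1 and replicate 3 was 21.3, 1.76 and 3.27 for BCL2L1. It was 11.3, 0.69 and 1.45 for BID, and 85.1, 9.14 and 12.8 for PMAIP1. For these 3 genes the class is thus not the level in each sample, and their distances from it may differ with classes set by sample.

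**Figure D2:**
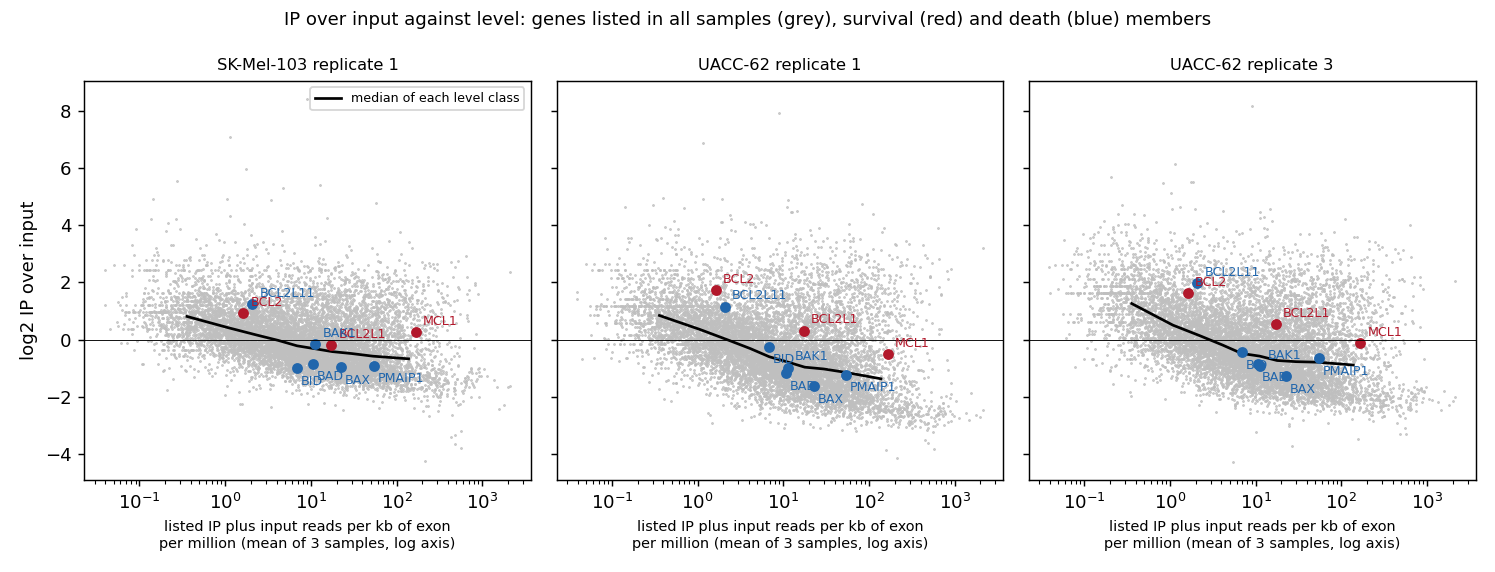
Log2 IP over input (y axis) against listed IP plus input reads per kb of exon and 1000000 listed reads (x axis, log scale, mean of 3 samples) in each sample. Grey points are the 10319 genes, the black line joins the medians of 10 level classes, red points are survival and blue points death members. The survival members and BCL2L11 lie above the line in each panel, and BAX and BAD below it.

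By position, the listed reads lay mostly in 3' UTRs. BCL2L11 had all of its 113 IP reads in the 3' UTR in SK-Mel-103, and all 66 in UACC-62 replicate 1. Its listed input reads, 36 and 26, all lay there too. Of the 306 BCL2 reads in SK-Mel-103, 288 were in bins labelled 3' UTR. The 3' UTR of the main annotated BCL2 transcript held 5 of these at its end and 116 in its rest. In UACC-62 replicate 3 it held 11 and 94 of 133, and in replicate 1 it had bins of 4, 5 and 5 of 37. The other BCL2 reads so labelled lay where only other annotated forms have a 3' UTR. Whether they came from such forms was not tested. MCL1 had 10115, 2641 and 4825 IP reads in its 3' UTR and 584, 104 and 202 in its coding region. Its input reads were 6286, 3264 and 3108 in the 3' UTR and 606, 268 and 250 in the coding region. The listed input thus also lay mostly in the 3' UTR of MCL1. BAX was divided more evenly by label, with 99, 77 and 99 IP reads in the 3' UTR and 105, 92 and 73 in the coding region. A bin was labelled 3' UTR where any annotated coding form has it there. BAX bins centred at -99, -79, -59 and -19 nt from the stop codon of the main annotated transcript were so labelled. They held 7, 11, 26 and 16 of the 99 reads in SK-Mel-103, so the even split depends on the label.

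In MCL1, the 3' UTR was above the coding region in all 3 samples. The 3' UTR had a log2 IP over input of 0.31, -0.46 and -0.063, and the coding region of -0.43, -1.51 and -1.0. The difference of 0.74, 1.05 and 0.94 compares with medians of 0.38, 0.36 and 0.29 over 5305 genes with enough reads in both regions. In BAX the difference was 0.16, 0.11 and 0.21, and in BCL2L1 it was 0.29, 0.92 and 0.18. The BAX 3' UTR value includes the bins before the main stop codon named above, so it is in part coding sequence. Coding exon 2 of MCL1 (chr1:150550720-150550967), which is skipped in the short, death-promoting form of the mRNA, had values of -0.92, -1.67 and -1.26. Coding exon 1 (chr1:150551319-150552006) had -0.12, -0.45 and -0.15, from as few as 17 IP reads in UACC-62 replicate 1. Exon 2 was lower than exon 1 in each sample. Coding exon 3 had 0.037, -1.56 and -1.16, near exon 2 in both UACC-62 samples and above both other exons in SK-Mel-103. A low value in UACC-62 was therefore not particular to exon 2.

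The 23 common peaks of MCL1 all lay in the 3' UTR. Above the list average in all 3 samples were 5 of them, and below it in all 3 were 8. The bin in the middle of the 3' UTR printed above, centred 1163 nt after the stop codon, had 346, 92 and 139 IP reads but 371, 157 and 183 input reads. Its log2 IP over input was -0.47, -0.92 and -1.09, so that its height was that of the input too. The bin printed from the end, centred 37 nt before the annotated transcript end, had 362, 107 and 117 IP reads over 38, 24 and 22 input reads. Its log2 IP over input was 2.84, 1.95 and 1.66.

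That bin and its neighbour on either side, together chr1:150547041-150547100, were the 3 common peaks of MCL1 above 1 on the log2 scale in every sample. The neighbour nearer the end had 182, 35 and 87 IP reads over 11, 3 and 3 input reads. The other neighbour had 148, 45 and 38 IP reads over 11, 10 and 11 input reads. Over all 133 MCL1 bins listed in all 3 samples, with no read minimum, 5 were above 1 in every sample. The 5 were these 3, the next bin inwards and a bin centred 943 nt after the stop codon, which had 30, 9 and 21 IP reads over 5, 2 and 2 input reads. High values therefore occurred inside the 3' UTR too, as in the common peak at 923 nt, with 1.48, 0.76 and 0.24.

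Taken as a window chosen after these values were seen, the last 100 nt of the MCL1 3' UTR had 785, 213 and 269 IP reads over 82, 46 and 48 input reads. The rest of the 3' UTR had 9309, 2428 and 4556 IP reads over 6189, 3218 and 3060 input reads. The end minus the rest was 2.65, 2.59 and 1.89 on the log2 scale. Over 2068 genes with enough reads in both, the median of this difference was 0.25, 0.10 and 0.08, and MCL1 stood at percentile 99.3, 99.5 and 98.9. Of the other members, BCL2L1 had differences of 0.46, 0.51 and 0.35, each above the median of all genes, with 11 IP and 5 input reads at the end in UACC-62 replicate 1. PMAIP1 had differences of 0.22, -0.32 and 0.25, and BAD of -0.87, -1.08 and -0.86.

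**Figure D3:**
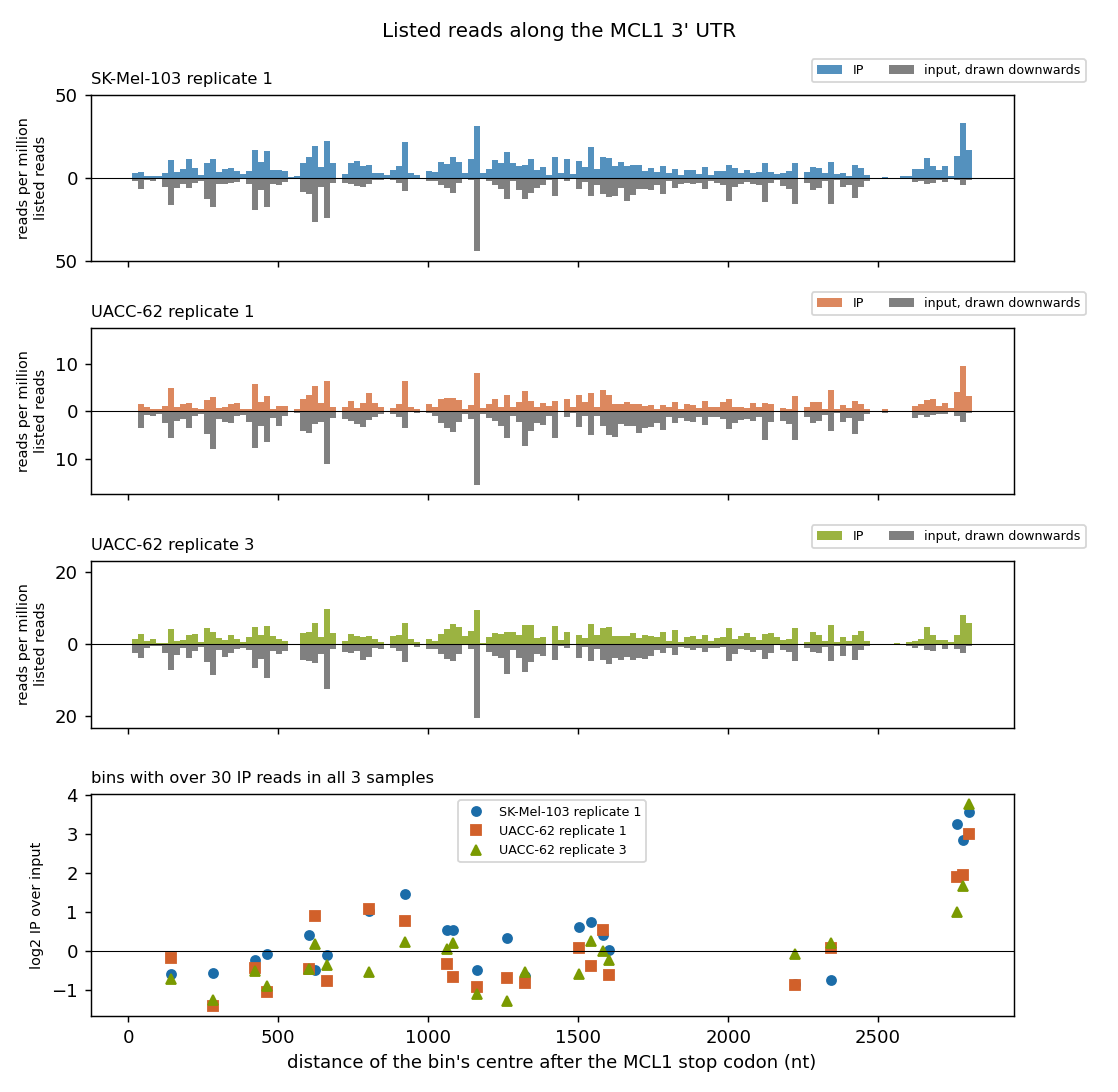
IP reads (coloured, upwards) and input reads (grey, downwards) per 1000000 listed reads in 20-nt bins along the MCL1 3' UTR, by distance from the stop codon, for each sample with its own y scale. The lowest panel gives log2 IP over input of the 23 common peaks, in which the 3 bins at the right end lie highest in all samples and the bin with the most input reads, at 1163 nt, lies below 0.

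The MCL1 pattern recurred between samples. Over 133 bins listed in all 3 samples, the Spearman correlation of log2 IP over input was 0.63 between SK-Mel-103 and UACC-62 replicate 1, 0.52 between SK-Mel-103 and replicate 3, and 0.47 between the UACC-62 replicates. Neighbouring bins share reads, and these values are descriptions. All 23 peaks of UACC-62 replicate 1 were peaks in both other samples. Of the 73 peaks of replicate 3, 72 were also peaks in SK-Mel-103, and of the 111 in SK-Mel-103, 72 were peaks in replicate 3 and 23 in replicate 1. Over all protein-coding genes, 57.8% of replicate 1 peaks recurred in SK-Mel-103 and 87.1% in replicate 3. Of all replicate 3 peaks, 47.4% recurred in SK-Mel-103. Of all SK-Mel-103 peaks, 58.5% recurred in replicate 1 and 72.9% in replicate 3, where MCL1 was lower, at 20.7% and 64.9%. The samples stood in the same order by number of MCL1 peaks and by MCL1 IP reads.

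The common peak of BAX was centred 1 nt after the stop codon. It had 33, 37 and 35 IP reads over 87, 120 and 86 input reads, or -1.75, -1.83 and -1.97 on the log2 scale. A peak by IP reads was therefore below the list average by ratio in all 3 samples. BAX exonic bins outside its coding and untranslated parts had 25, 15 and 25 IP reads over 10, 13 and 1 input reads, the one BAX region not below 0 in any sample.

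GU-rich elements were sought as 11 nt of alternating U and G, or of UGUU repeated, with up to 2 mismatches, on the transcript strand of annotated 3' UTRs, with overlapping matches counted once. BCL2 held 4, BCL2L11 3, and BBC3 and BID 1 each. BCL2L1, MCL1, BAX, BAK1, PMAIP1 and BAD held none. At least 1 was present in 55.3% of 19708 genes. BCL2 and BCL2L11 also had the longest 3' UTRs of the family, 9532 and 4673 bp over all annotated forms. Per kb they held 0.42 and 0.64 elements, against a median of 0.41 over all genes. BCL2 and BCL2L11, with the most elements, had the highest IP over input as the mean of the 3 samples, whereas BID, with 1 element, lay below 0 and MCL1, with the strong bins at its end, had none. Within BCL2, bins within 100 nt of an element were lower than its other 3' UTR bins, with differences of -0.76, -1.54 and -0.90 on the log2 scale. Within BCL2L11 the difference was 0.15, -1.67 and 0.40. The bins near an element had only 9 to 41 IP reads and 2 to 16 input reads per sample in these 2 genes. In UACC-62 both genes had too few reads there for a named ratio, so no direction is read from those values. Over 3129 genes with enough reads, the median of this difference was 0.17, 0.16 and 0.076. It was above 0 in 63.7%, 62.9% and 58.4% of them.

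Most of the remaining BCL2-family genes had listed bins in at least 1 sample, but fewer had them in all samples. Of 4 other survival genes, 3 were listed in at least 1 sample, 2 were listed in all samples and none had a common peak. BCL2L2 (BCL-W) had values of -0.36, -0.38 and -0.25. BCL2A1, named after its values were seen, had no listed bin in SK-Mel-103 and 139 and 368 IP reads over 614 and 730 input reads in UACC-62, or -2.29 and -1.68. Of 9 other death genes, 7 were listed in at least 1 sample, 3 were listed in all samples and 1 had common peaks. Of all 13475 genes listed in at least 1 sample, 10319 were listed in all and 13.1% had a common peak. BNIP3, a mitophagy receptor with a BH3 domain, had 6 common peaks and values of 0.20, -0.71 and 0.41. Its relative BNIP3L had 0.024, -1.44 and -0.76.

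Of 14 genes in or around the mitochondrial caspase pathway, not all of them downstream of the pore, 13 were listed in all samples. Of these 13, 2 lay above 0 in all 3 samples and 8 below, where the shares of all genes were 31.6% and 43.2%. Common peaks were present in 4 of the 14, where the share was 13.1%. CYCS, cytochrome c, held 25 and was the lowest of the list by the mean of the 3 samples, with -1.24, -2.36 and -1.79; it has many pseudogenes with which reads can be shared. VDAC1 and VDAC2, channels of the outer membrane, held 35 and 3 common peaks, with values of -0.68, -1.35 and -0.53 for VDAC1 and -1.15, -1.85 and -1.84 for VDAC2. DIABLO, which releases caspases from their inhibitors, had 12 and values of 1.27, 0.17 and 1.11, but nearly all its bins also lay in an overlapping gene and its reads are uncertain. DFFB, the nuclease that cuts DNA in apoptosis, was the highest of the list by that mean, with 1.91, 1.21 and 1.18, from 77, 213 and 263 IP reads.

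Of 5 genes that control MCL1 protein, MARCHF5, a mitochondrial ubiquitin ligase that acts on MCL1 with NOXA, held 21 common peaks. It had 6404 IP reads over 976 input reads in SK-Mel-103, 3476 over 478 in UACC-62 replicate 1 and 2587 over 543 in replicate 3. Its log2 IP over input of 2.34, 2.70 and 1.55 was above that of each of the 9 members of the family with a ratio in SK-Mel-103 and UACC-62 replicate 1, and in replicate 3 it was below those of BCL2 and BCL2L11. USP9X, which removes ubiquitin from MCL1, was the lowest by the mean of the 3 samples, with -1.02, -1.79 and -1.74. By listed level and log2 IP over input in the 3 samples together, the genes nearest to MCL1 among 8330 were SRSF2 (0.13, -0.17 and -0.30), CMTM6 (-0.17, -0.43 and 0.15) and POLE3 (-0.28, -0.84 and 0.20).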

How the data were processed

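The authors aligned single-end reads to GRCh37 (TopHat2 and Bowtie in the submitters' notes) as a first-strand library and called bins of 20 bp with Piranha, each IP against its own input. The deposited read counts are whole IP reads per passing bin. The methods give a threshold of 0.05 FDR; the p-value deposited by the authors lies under 0.05, and the lists do not name it as raw or corrected. The ratio deposited by the authors is the model's input covariate, from which whole input reads were recovered; 0.01 marks no input. Input outside listed bins was not analysed here, so every value is conditional on a bin having passed.

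Bins were placed by their centre in exons of GENCODE 44 (mapped to GRCh37) on the reverse of the listed strand, with pandas 2.3.3 and pysam 0.24.0. Reads were divided by list totals with a pseudocount of 1. The summing of reads and the ratio were run on simulated data, in which all 200 changed genes of 1908 were recovered. The simulated bins were the exon bins themselves, without the strand reversal or the caller's selection. The run therefore could not test the placement or the effect of that selection. Members and lists were chosen with earlier results of these data known. Named were all members, genes of other lists with a common peak, the highest and lowest of each list with at least 30 reads in each sample, and the 3 genes nearest to MCL1. No test was made, with 1 SK-Mel-103 and 2 UACC-62 samples, and 14 planned and 3 added alternatives were run.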

Additional observations from a re-analysis of the deposited data

Results flagged for a closer look

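For 2 genes, SK-Mel-103 lay on one side of the list average and both UACC-62 replicates on the other; the difference between the lines was not tested, since SK-Mel-103 had 1 sample. MCL1 was 0.58 higher on the log2 scale in SK-Mel-103 than the UACC-62 mean. For BCL2L1 the difference, SK-Mel-103 minus the UACC-62 mean, was -0.62. The sides depend in part on the division by list totals: without it, the UACC-62 mean of MCL1 was 0.11 and BCL2L1 in SK-Mel-103 was 0.18. MCL1 in UACC-62 replicate 1 stayed below 0, with 2745 IP over 3532 input reads.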

How the results depend on the processing

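The survival minus death difference, 1.24 as the mean of the 3 samples, kept its sign under every alternative that gave a value. The literal strand gave none, since it left too few members with listed bins. Centring on the median gene and leaving out the division by list totals shift all genes of a sample alike. These 2 could therefore not change the difference. The difference moved by more than the UACC-62 SD to 1.64 with the inputs of the UACC-62 replicates exchanged, which also left out bins not listed in both. It moved to 1.41 with 3' UTR bins only, 1.37 with bins listed in all 3 samples only and 1.66 with bins over 30 IP reads only. In the last of these, both UACC-62 samples had only MCL1 and 1 bin of BAX. The difference ranged from 1.16 to 1.25 when a UACC-62 replicate was left out, and was 1.28 without BBC3.

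The 2 members above the list average in every sample became 1 with the listed strand read literally, 1 with bins listed in all 3 samples only and 0 with bins over 30 IP reads only. The 2 members with a common peak became 0 with the literal strand, 1 above 100 IP reads and 9 with no read filter. Both stood at 2 with each UACC-62 replicate left out, except that 3 members were above the average without replicate 1, where BBC3 is listed.

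Of 207 values of single members under an alternative, 199 had the sign as reported and 5 reversed a gene that had 1 sign in all samples. With bins listed in all 3 samples, BCL2 in SK-Mel-103 was -0.052, from its 1 such bin. With the literal strand BID was 1.36 for SK-Mel-103 and 1.93 for UACC-62. Without division by list totals BAK1 was 0.20 for SK-Mel-103 and BID 0.079 as the UACC-62 mean. The cause was not tested. The MCL1 end minus rest ran from 1.89 to 2.67. Depth limits BCL2, BCL2L11, BID, BAD and BAK1, whose counting intervals are wide. Each value is already paired, an IP over its own input; no test over the 3 pairs was run.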

Other observations

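BOK, a further death gene of the family, had a single listed bin in SK-Mel-103, with 1056 IP reads and no input read, and none in UACC-62. HRK, a BH3-only gene, had listed bins in UACC-62 alone, with 137 and 203 IP reads over 63 and 35 input reads. Both were named after their values were seen.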
